A study of Oryza sativa Japonica Group with 15 samples.

Results

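Single-cell Hi-C finds which parts of the genome touched in a single nucleus, by cutting fixed chromatin, ligating the ends and sequencing the joined pieces. The zygotes and sperm cells of a rice series (Oryza sativa, japonica, cultivar Dongjin) were set against each other here. They are 7 of its 15 cells, chosen by their titles: zygotes 1 to 3 and sperm 1 to 4. The zygotes were single-celled and came from florets 6 to 8 hours after pollination, and the sperm cells came from stamens. The other 8 cells are 4 eggs and 4 shoot cells, used only where a comparison needed them. All plants were grown in a greenhouse or a paddy field, with no plant named for any cell. Each cell was fixed in 2% formaldehyde for 15 minutes and digested for 14 hours with DpnII, and its DNA was amplified whole by multiple displacement.

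The sperm nucleus of a flowering plant is small and compact and carries 1 set of chromosomes. It enters the egg at fertilization, and the zygote nucleus then holds the chromosomes of both gametes. Each chromosome tends to occupy a territory of its own, so contacts within a chromosome (cis) exceed what random pairing would give, and the gap over contacts between chromosomes (trans) measures how far territories stay apart. The zygote has a copy of each chromosome from either parent. The files do not separate the copies, so contacts within 1 copy and contacts between both copies cannot be told apart in zygotes.

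A contact is a pair of restriction fragments joined in a cell, counted once however many reads show it. Zygotes 1, 2 and 3 had 948, 1274 and 785 contacts, from 3559, 4319 and 3584 read pairs. Sperm 1, 2, 3 and 4 had 3446, 1610, 1279 and 761 contacts, from 12343, 7239, 5184 and 2683 read pairs. The deepest cell was a sperm cell and so was the shallowest, and the read pairs per contact were alike, at 3.90 ± 0.602 in zygotes (SD, n = 3 cells) and 3.91 ± 0.454 in sperm cells (SD, n = 4 cells). With no plant of origin named, each group counts as 1 sample: no test between groups was made, and differences are set against the spread between cells. Intervals are exact 95% intervals (Poisson for counts, Clopper-Pearson for shares) and cover counting error only. Amplified reads carry no molecular identifier, and contacts of 1 ligation event can be listed more than once, so these intervals are too narrow.

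Most contacts joined neighbouring positions. Zygotes 1, 2 and 3 had 59.4%, 53.8% and 45.1% of contacts under 1 kb, against 61.0%, 66.9%, 59.0% and 63.1% in sperm 1, 2, 3 and 4. Zygote 1 lay within the sperm range. Far contacts, meaning trans contacts and cis contacts of at least 20 kb, numbered 222, 401 and 332 in zygotes 1, 2 and 3 and 390, 249, 311 and 130 in sperm 1, 2, 3 and 4. They made up 23.4%, 31.5% and 42.3% of the contacts of the zygotes, against 11.3%, 15.5%, 24.3% and 17.1% of those of the sperm cells. Zygotes 2 and 3 lay above all sperm cells, and zygote 1 lay just under sperm 3. The trans share of far contacts was 81.1%, 85.3% and 83.7% in the zygotes, against 61.0%, 82.7%, 78.1% and 81.5% in the sperm cells. Only sperm 1 stood well below the others, and the groups overlapped.

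Zygotes had a smaller excess of cis contacts than sperm cells. The cis excess is the number of far cis contacts over the number expected if the same far contact ends were paired at random, with pairs of ends nearer than 20 kb not allowed. It was 1.58 (interval 1.14 to 2.13), 1.45 (1.10 to 1.87) and 1.43 (1.08 to 1.87) in zygotes 1, 2 and 3. In sperm 1, 2, 3 and 4 it was 3.59 (3.04 to 4.21), 1.94 (1.40 to 2.61), 2.87 (2.23 to 3.64) and 2.13 (1.37 to 3.17). Every interval lay above 1, though that of zygote 3 did not when repeated contacts were counted once, as given further on. The values of the 3 zygotes lay below those of the 4 sperm cells with no overlap. The means were 1.49 ± 0.0781 in zygotes (SD, n = 3 cells) and 2.63 ± 0.752 in sperm cells (SD, n = 4 cells), a difference of -1.15. Single intervals did overlap: that of sperm 2 and that of sperm 4 each reached into those of all zygotes. The zygote values were also close to those of the eggs, which were 1.47, 1.63, 1.96 and 1.56, and egg 3 reached the sperm range.

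Random thinning to equal numbers of contacts leaves this ratio nearly unchanged on average, so the order of the groups could hardly change. With every cell thinned to the 761 contacts of sperm 4, the mean over 100 draws was 1.57, 1.46 and 1.43 in zygotes 1, 2 and 3 and 3.54, 1.93, 2.85 and 2.13 in sperm 1, 2, 3 and 4. Far contacts still differed after thinning, at 179, 240 and 321 in the zygotes and 86, 118, 185 and 130 in the sperm cells. Repeated contacts were then reduced to 1 per place, a place being a group of far contacts whose both ends lay within 100 kb of those of another member. The 222, 401 and 332 far contacts of zygotes 1, 2 and 3 came from 155, 276 and 230 places, and the 390, 249, 311 and 130 of sperm 1, 2, 3 and 4 from 231, 160, 234 and 96 places. Counted by place, the cis excess was 1.55, 1.56 and 1.34 in zygotes 1, 2 and 3, against 3.09, 1.99, 2.43 and 1.83 in sperm 1, 2, 3 and 4. The interval of zygote 3 then included 1 (0.902 to 1.91), and those of zygote 1 and sperm 4 each started at 1.02. The groups remained apart, with a smaller distance between them (mean difference -0.853). The groups overlapped under 3 other settings, with means lower in zygotes in each. These were 1.88 in zygotes and 3.27 in sperm cells without fragments of more than 4 partners, 1.38 in zygotes and 2.19 in sperm cells for cis contacts from 100 kb, and 1.94 in zygotes and 2.81 in sperm cells with an expectation from chromosome lengths. They also overlapped without recurrent bins, described further on.

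**Figure D1:**
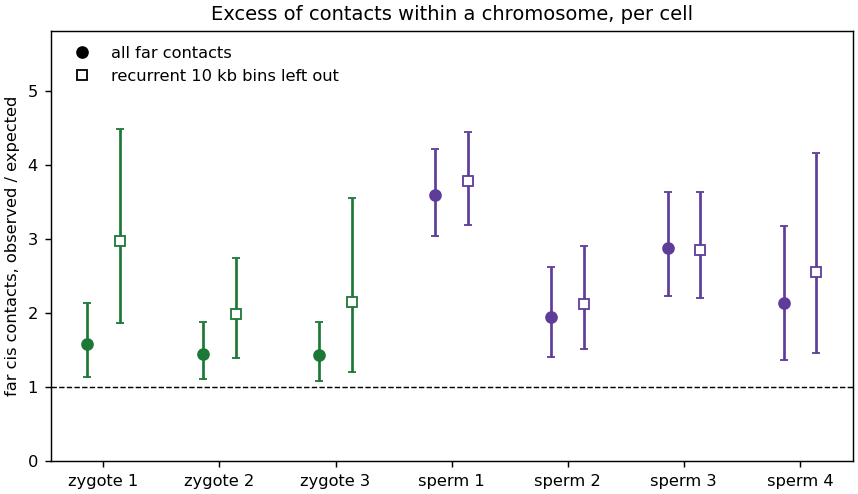
Far cis contacts over the number expected under random pairing of the same ends, for each zygote and each sperm cell. Filled points use all far contacts, open squares leave out contacts at recurrent 10 kb bins, bars are exact 95% Poisson intervals and the dashed line marks random pairing. Filled points range from 1.43 to 1.58 in zygotes and from 1.94 to 3.59 in sperm cells, while open squares range from 1.98 to 2.96 in zygotes and from 2.12 to 3.77 in sperm cells.

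The ratio to random pairing differed most at short separations. Between 20 kb and 200 kb, the 3 zygotes had 41 contacts where 13.5 were expected, a ratio of 3.03 (interval 2.18 to 4.11), and the 4 sperm cells had 90 where 2.81 were expected, a ratio of 32.1 (25.8 to 39.4). Per cell the ratio was 3.32, 3.96 and 2.26 in zygotes 1, 2 and 3 and 42.2, 17.7, 61.9 and 13.8 in sperm 1, 2, 3 and 4, with no overlap. Eggs 1, 2, 3 and 4 had 3.62, 3.11, 21.6 and 1.80. The low ratio was thus not particular to zygotes, and egg 3 lay within the sperm range. Expected counts were 4.22, 3.53 and 5.76 in the zygotes and 1.35, 0.507, 0.226 and 0.724 in the sperm cells. The share of far cis contacts in this class overlapped between the groups. It was 33.3%, 23.7% and 24.1% in the zygotes and 37.5%, 20.9%, 20.6% and 41.7% in the sperm cells. Without recurrent bins the ratios overlapped too, as given further on. Between 200 kb and 2 Mb the summed ratio was 2.28 (1.30 to 3.70) in zygotes and 10.2 (8.36 to 12.4) in sperm cells. That distance came from sperm 1 and sperm 3, at 14.3 and 13.8, whereas sperm 2 and sperm 4, at 2.16 and 1.89, lay within the range of the zygotes (1.33 to 3.72). At 2 Mb to 10 Mb the ratios were 1.24 (0.949 to 1.59) in zygotes and 1.33 (0.989 to 1.75) in sperm cells. Over 10 Mb they were 1.05 (0.738 to 1.44) in zygotes and 0.835 (0.596 to 1.14) in sperm cells. Beyond 2 Mb neither summed group was distinguishable from random pairing at this depth. Single cells differed at 2 Mb to 10 Mb. Intervals lay above 1 in zygote 2 (1.67, 1.14 to 2.36), sperm 2 (2.07, 1.25 to 3.23) and sperm 4 (2.01, 1.01 to 3.60). Those of the other cells included 1.

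**Figure D2:**
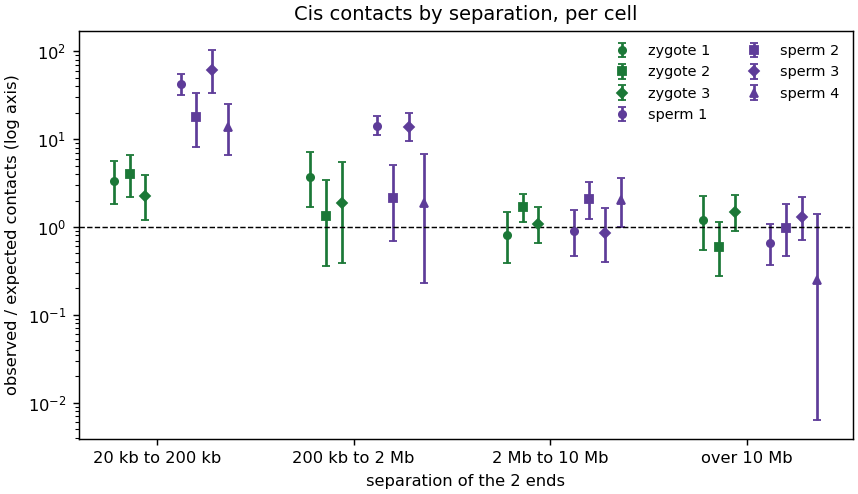
Observed over expected cis contacts in 4 classes of separation, per cell, on a log axis, with exact 95% Poisson intervals. At 20 kb to 200 kb the zygotes lie between 2.26 and 3.96 and the sperm cells between 13.8 and 61.9, and beyond 2 Mb the cells of both groups lie on either side of 1.

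The separations themselves overlapped between the groups. The share of far cis contacts spanning at least 2 Mb was 45.2%, 69.5% and 70.4% in zygotes 1, 2 and 3 (of 42, 59 and 54 contacts), against 17.8%, 67.4%, 33.8% and 50% in sperm 1, 2, 3 and 4 (of 152, 43, 68 and 24 contacts). The intervals ran from 29.8% to 61.3% in zygote 1, the lowest zygote, and from 51.5% to 80.9% in sperm 2, the highest sperm cell. The median separation was 0.981, 5.56 and 7.18 Mb in the zygotes and 0.328, 6.70, 1.21 and 1.97 Mb in the sperm cells. Zygotes were higher on average, but the difference of 19.4 percentage points between the means was close to the SD between the cells of a group (18.8). In sperm 1 and sperm 3, 68 and 31 contacts spanned 200 kb to 2 Mb, from 24 and 10 places. These 2 cells held most of the sperm contacts of that class, which numbered 106.

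Far contacts of zygotes were concentrated at a few places in the genome. A 10 kb bin was called recurrent when 5 or more of the 15 cells had a far contact there. There were 95 such bins, 0.255% of the genome, 30 of them on chromosome 12. In zygotes 1, 2 and 3, 61.3%, 54.4% and 71.7% of far contacts had an end in a recurrent bin, against 8.72%, 17.3%, 3.54% and 40.8% in sperm 1, 2, 3 and 4. All zygotes lay above all sperm cells, with means of 62.4% ± 8.72 in zygotes (SD, n = 3 cells) and 17.6% ± 16.5 in sperm cells (SD, n = 4 cells). The zygotes themselves helped define these bins, so the bins were also drawn from the 8 egg and shoot cells alone, as those with a far contact in 3 or more of them. That gave 97 bins, 80 of them in both lists, and shares of 59.0%, 52.4% and 69.0% in the zygotes and 8.21%, 16.9%, 1.93% and 36.9% in the sperm cells. On the first list, eggs 1, 2 and 4 had shares near those of the zygotes, at 54.3%, 50.8% and 76.1%, and egg 3 had 3.23%. Shoot cells 1, 2, 3 and 4 had 14.1%, 31.0%, 3.71% and 16.9%, within the range of the sperm cells. Eggs 1, 2 and 4 helped define both lists, so the second list is not independent of cells that resemble the zygotes here.

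Contacts nearer than 20 kb touched a recurrent bin in 9.50%, 8.59% and 20.1% of cases in zygotes 1, 2 and 3 and in 1.21%, 2.06%, 0.207% and 8.56% of cases in sperm 1, 2, 3 and 4. All zygotes lay above all sperm cells, with sperm 4 close to zygote 2, and in sperm 3 the share was below the 0.255% of the genome that these bins make up. The coverage of these bins by nearer contacts thus moved with the share of far contacts, and its part in the result was not tested.

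**Figure D3:**
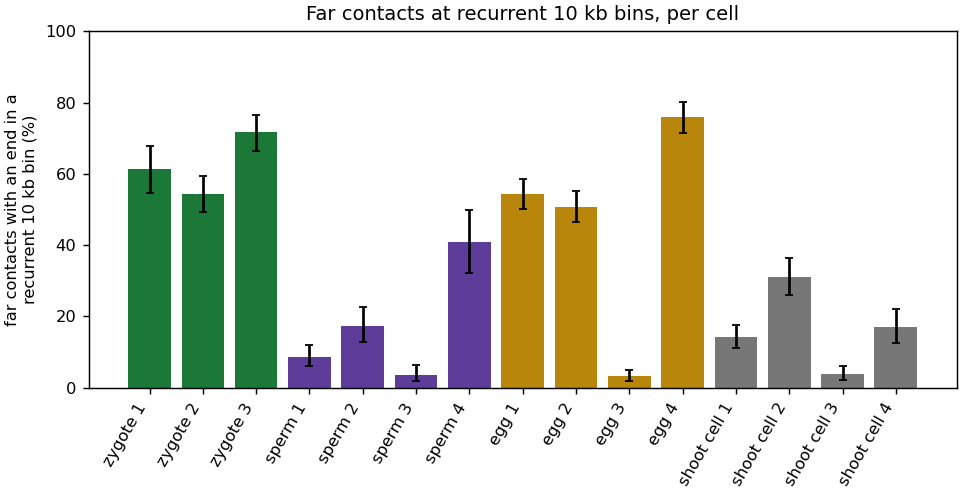
Share of far contacts with an end in 1 of the 95 recurrent 10 kb bins, for each of the 15 cells, with exact 95% binomial intervals. The zygotes range from 54.4% to 71.7% and the sperm cells from 3.54% to 40.8%, and the eggs and shoot cells are drawn to show the spread over the series.

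The stretches with most recurrent bins lay on chromosome 12. All stretches named here were drawn from the first list, which far contacts of these same zygotes helped define. Their values describe the stretches and are no support for a difference between the groups. Positions are those of the files, whose genome build is not given in the sources used here. A stretch of 100 kb at 20470001 to 20570000 held 7.21%, 7.23% and 6.33% of the far contact ends of zygotes 1, 2 and 3. In sperm 2 it held 0.602%, and in sperm 1, 3 and 4 it held 0 of 780, 622 and 260 ends, where 3 ends would be 0.385%, 0.482% and 1.15% and the exact upper limits are 0.472%, 0.591% and 1.41%. The stretch is 0.0268% of the genome. It was not particular to zygotes. Eggs 1, 2, 3 and 4 held 8.20%, 12.2%, 0.0896% and 4.36% of their far ends there, so eggs 1 and 2 exceeded every zygote. Shoot cells 1, 2, 3 and 4 held 0.893%, 2.94%, 0.348% and 0.412%. Of contacts nearer than 20 kb, the stretch had 2.75%, 1.49% and 5.52% in zygotes 1, 2 and 3 and 0.360%, 0.735%, 0% and 2.54% in sperm 1, 2, 3 and 4. Sperm 4 lay within the zygote range there, and sperm 3 had 0 of 968. In zygotes, 23, 46 and 31 of the 32, 56 and 42 far contacts of the stretch were trans, with 8, 11 and 9 partner chromosomes.

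A stretch of 80 kb on chromosome 12, at 13340001 to 13420000, held 6.76%, 7.86% and 7.53% of far ends in zygotes 1, 2 and 3. In sperm 1, 2, 3 and 4 it held 1.67%, 3.01%, 0.161% and 9.62%, so sperm 4 exceeded every zygote and the groups overlapped. Eggs 1, 2, 3 and 4 had 5.16%, 3.88%, 0.0896% and 16.6% there. A stretch of 80 kb on chromosome 1, at 33510001 to 33590000, held 2.48%, 1.25% and 10.1% in the zygotes, against 0.897%, 0.602%, 0% and 3.08% in the sperm cells, where the 0 of 622 ends of sperm 3 has an exact upper limit of 0.591%. Zygote 3 alone stood apart there. No annotation of this build was used, so the genes or repeats at these places are not named.

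With contacts at recurrent bins left out, the cis excess of the groups overlapped. It was 2.96 (interval 1.86 to 4.48), 1.98 (1.39 to 2.74) and 2.15 (1.20 to 3.55) in zygotes 1, 2 and 3, from 86, 183 and 94 far contacts. In sperm 1, 2, 3 and 4 it was 3.77 (3.18 to 4.44), 2.12 (1.51 to 2.90), 2.85 (2.20 to 3.63) and 2.56 (1.46 to 4.15), from 356, 206, 300 and 77 far contacts. Every zygote was higher than with all contacts, and zygote 1 most so, while the sperm cells moved less. The means were 2.36 ± 0.526 in zygotes (SD, n = 3 cells) and 2.82 ± 0.700 in sperm cells (SD, n = 4 cells). At 20 kb to 200 kb the ratio became 73.0, 40.9 and 25.4 in the zygotes, on 4, 10 and 5 contacts, and 41.1, 20.7, 65.4 and 32.6 in the sperm cells, on 55, 9, 14 and 8 contacts. With the bins drawn from egg and shoot cells the groups overlapped too, at 2.76, 2.01 and 1.76 in zygotes and 3.76, 2.10, 2.84 and 2.33 in sperm cells. Both lists were drawn from cells of this series. Leaving their bins out removed a larger part of the far contacts of zygotes than of sperm cells. The part of recurrent bins in the lower cis excess of zygotes was not tested.

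Chromosome 12 took a larger part of the far contact ends of zygotes than its length gives it. Its share of far ends over its share of the genome was 3.78, 3.16 and 2.69 in zygotes 1, 2 and 3, against 1.79, 1.71, 0.501 and 2.55 in sperm 1, 2, 3 and 4. Chromosome 8 was the other chromosome whose groups did not overlap, with 0.384, 0.491 and 0.435 in the zygotes and 0.572, 0.843, 1.10 and 0.858 in the sperm cells. That is 2 of 12 chromosomes (16.7%). Of the 95 recurrent bins, which the zygotes helped define, 30 lie on chromosome 12, so leaving them out lowers its share by construction. Without recurrent bins chromosome 12 came down to 0.504 to 1.02 in zygotes and 0.440 to 1.58 in sperm cells. The 1 chromosome of 12 (8.33%) that then kept the groups apart was chromosome 2, at 1.11 to 2.72 in zygotes and 0.416 to 1.01 in sperm cells.

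Most chromosomes exceeded random pairing in both groups. With the cells of a group summed, the cis excess was above 1 in 11 of 12 chromosomes in zygotes and in 12 of 12 in sperm cells. It was lower in zygotes in 8 chromosomes and higher in 4. No chromosome had all zygotes apart from all sperm cells (0 of 12, 0%). Single cells held few contacts: 8 of 36 values of a chromosome in a zygote and 7 of 48 in a sperm cell rested on 0 cis contacts.

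Relative to sperm cells, zygotes were lowest on chromosomes 7, 10 and 12. Chromosome 7 had 1 cis contact in the 3 zygotes where 1.57 were expected, a ratio of 0.636 (interval 0.0161 to 3.54), and 20 in the 4 sperm cells where 6.79 were expected, a ratio of 2.95 (1.80 to 4.55). The log2 ratio of zygotes over sperm cells was -2.21 for it. Chromosome 10 had ratios of 1.13 (0.233 to 3.30) in zygotes and 3.03 (1.82 to 4.73) in sperm cells, a log2 ratio of -1.43. Without zygote 2 the log2 ratio of chromosome 7 was -0.011, at 2.92 in zygotes and 2.95 in sperm cells. Chromosome 12, with 59 cis contacts in zygotes and 44 in sperm cells, gave 1.26 (0.961 to 1.63) in zygotes and 3.10 (2.25 to 4.16) in sperm cells, a log2 ratio of -1.30. Of these 3, the counting intervals were apart only for chromosome 12. Its cells overlapped nevertheless, at 1.17, 1.07 and 1.71 in zygotes 1, 2 and 3 and 4.37, 2.15, 0 and 2.15 in sperm 1, 2, 3 and 4, because sperm 3 had no far cis contact on it where 0.357 were expected. Without recurrent bins the direction turned for chromosome 12, with 6.26 in zygotes on 6 contacts and 4.33 in sperm cells on 28 contacts.

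The chromosomes highest in zygotes relative to sperm cells were 8, 5 and 6. Their ratios were 4.96 (1.61 to 11.6) in zygotes and 4.00 (2.28 to 6.49) in sperm cells for chromosome 8, and 2.65 (0.861 to 6.19) in zygotes and 2.17 (1.30 to 3.38) in sperm cells for chromosome 5. For chromosome 6 they were 5.10 (2.20 to 10.0) in zygotes and 4.22 (2.54 to 6.59) in sperm cells. These log2 ratios of 0.31, 0.29 and 0.27 rested on 5, 5 and 8 zygote contacts, and each turned its sign in at least 3 of the alternatives tried. The counting intervals of the groups overlapped on all 3. On chromosome 1, named after its values were seen, they were apart, at 1.19 (0.794 to 1.73) in zygotes and 2.38 (1.86 to 3.00) in sperm cells. Its single cells overlapped, at 1.06 to 1.61 in zygotes and 0 to 5.34 in sperm cells, and so did the intervals without recurrent bins, at 2.07 (1.07 to 3.62) in zygotes and 2.50 (1.94 to 3.16) in sperm cells.

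**Figure D4:**
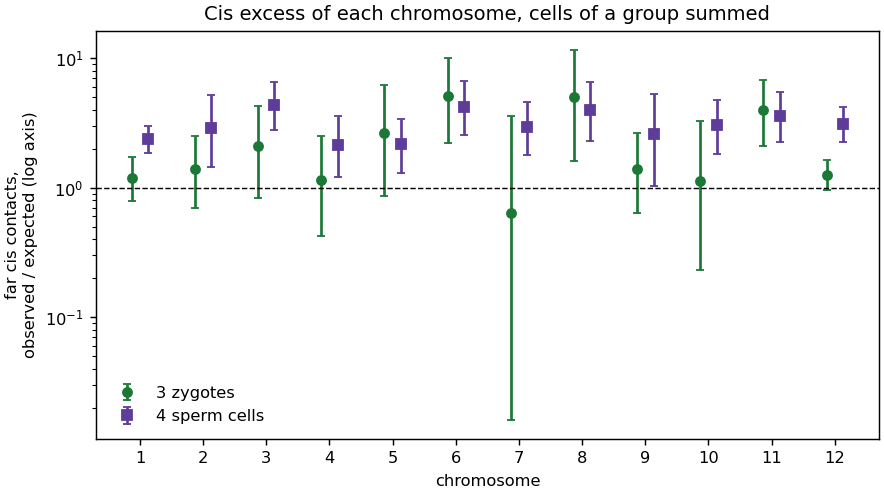
Far cis contacts over the expected number for each of the 12 chromosomes, with the contacts of the 3 zygotes and of the 4 sperm cells summed, on a log axis with exact 95% Poisson intervals. Intervals of zygotes and sperm cells overlap on 10 chromosomes, and are apart for chromosome 12 (1.26 in zygotes and 3.10 in sperm cells) and chromosome 1 (1.19 in zygotes and 2.38 in sperm cells).

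Trans contacts showed few preferences between particular chromosomes that separated the groups. Of 66 pairs of chromosomes, 2 (3.03%) had all zygotes on 1 side of all sperm cells. Chromosomes 2 and 11 shared 18 contacts in zygotes where 11.3 were expected from the trans ends of each cell (1.59, cells from 1.25 to 1.93), and 6 in sperm cells where 9.47 were expected (0.633, cells from 0.468 to 0.936). Chromosomes 3 and 6 shared 5 contacts in zygotes (1.18) and 4 in sperm cells (0.444). These 2 pairs were picked out by that lack of overlap, so their values describe it only.

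Chromosome ends were not a preferred place of far contacts in most cells of either group. The 24 windows of 1 Mb at the chromosome ends make up 6.44% of the genome. They held 2.70%, 7.98% and 1.66% of the far ends of zygotes 1, 2 and 3, and 4.62%, 8.43%, 4.50% and 5.77% of those of sperm 1, 2, 3 and 4. Zygotes 1 and 3 had the lowest shares of the 7 cells, and zygote 2 lay among the sperm cells. Relative to length the mean was 0.639 ± 0.526 in zygotes (SD, n = 3 cells) and 0.905 ± 0.284 in sperm cells (SD, n = 4 cells), a difference smaller than the spread in zygotes. With windows of 2 Mb the groups no longer overlapped: the values relative to length were 0.542, 0.736 and 0.339 in the zygotes and 0.796, 1.36, 1.29 and 0.746 in the sperm cells. Eggs 1, 2, 3 and 4 had 0.415, 0.706, 0.591 and 0.348, within the range of the zygotes. Without recurrent bins zygotes and sperm cells overlapped again, with means of 0.975 ± 0.185 in zygotes and 1.22 ± 0.326 in sperm cells for the wider windows.

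Single chromosome ends were filled unevenly. In zygotes the window with most far ends was the far end of chromosome 2, with 42 ends, 41 of them in zygote 2, followed by the start of chromosome 1 with 6, all in 1 cell. The far ends of chromosomes 4, 5 and 9 had 5 each. In sperm cells the far ends of chromosomes 8, 5 and 7 led, with 19, 17 and 13 ends, where the zygotes had 1, 5 and 0. Sperm 3 held 16 of the 19 on chromosome 8 and sperm 2 held 14 of the 17 on chromosome 5, so 1 cell carried each of these leads. No far end fell in 9 of the 24 windows in zygotes and in 3 in sperm cells. In 1 window of 24 (4.17%) the groups did not overlap, the far end of chromosome 9, with 2.25 to 3.01 per 1000 far ends in the zygotes and 0 to 1.28 in the sperm cells, on 5 ends in zygotes and 1 in sperm cells.

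Contacts between the ends of different chromosomes were rare. The zygotes had 2 where 1.71 were expected from the trans ends of each cell, a ratio of 1.17 (interval 0.142 to 4.23), and the sperm cells had 8 where 2.57 were expected, a ratio of 3.11 (1.34 to 6.13). The sperm excess rested on repeated contacts. In sperm 1 all 5 joined the far end of chromosome 2 to the start of chromosome 4, within a few kilobases, and in sperm 2 both joined the far ends of chromosomes 5 and 7. Counted once per place, the ratio was 1.83 in zygotes and 1.85 in sperm cells. In zygotes, 1 contact joined the far end of chromosome 2 to that of chromosome 10 and 1 joined it to that of chromosome 5. Both ends of the same chromosome met once, on chromosome 9 in zygote 3, and not in sperm cells.

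Zygotes shared few contact pairs with sperm cells. No read pair had the same positions in a zygote and a sperm cell, among far or nearer pairs. Of the far pairs of 10 kb bins, 28 were found in at least 1 zygote and at least 1 sperm cell, which is 3.95% of the 708 pairs of the zygotes and 3.69% of the 758 pairs of the sperm cells. With the eggs the zygotes shared 100 pairs, 14.1% of their own and 6.61% of the 1513 pairs of the eggs. Of the 28 pairs shared with sperm cells, 22 were trans, 13 had an end on chromosome 12 and 25 had an end in a recurrent bin. Of all far contacts, a mean of 83.4% in zygotes and 75.9% in sperm cells were trans. Chromosome 12 held 27.9%, 23.3% and 19.9% of the far ends of zygotes 1, 2 and 3. In sperm 1, 2, 3 and 4 it held 13.2%, 12.7%, 3.70% and 18.8%. A bin of a shared pair is already in at least 1 zygote and 1 sperm cell, which favours its call as recurrent. Of the 28 pairs, 19 were also in an egg or a shoot cell, and 9 were found in zygotes and sperm cells alone.

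At 10 kb, any 2 zygotes shared more pairs than a zygote and a sperm cell did. The 3 couples of zygotes shared 15, 19 and 20 pairs of 10 kb bins, the 12 couples of a zygote and a sperm cell shared 1 to 8, and the 6 couples of sperm cells shared 0 to 4. With all lists scaled to 110 pairs, the length of the shortest, the mean was 3.74 for couples of zygotes (2.88 to 4.93) and 1.04 for a zygote with a sperm cell (0.159 to 2.56). It was 0.741 for couples of sperm cells (0 to 2.65) and 2.46 for a zygote with an egg (0 to 6.46). On this measure the couples of zygotes lay above every couple of a zygote and a sperm cell, but in other units they overlapped. The scaled values for couples of zygotes started at 2.28 fragment pairs, 4.11 pairs of 100 kb bins and 4.25 pairs of 1 Mb bins, and those for a zygote with a sperm cell reached 2.34, 4.99 and 8.43. Couples share cells, so they are not independent of each other. There were 9 pairs in all 3 zygotes and 0 in all 4 sperm cells. Without recurrent bins couples of zygotes shared 0, the mean for a zygote with a sperm cell was 0.521 and that for couples of sperm cells 0.161. That list was drawn from these same cells, which removes shared pairs by construction. Without the bins drawn from egg and shoot cells the means were 1.68 for couples of zygotes, 0.911 for a zygote with a sperm cell and 0.298 for couples of sperm cells.

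**Figure D5:**
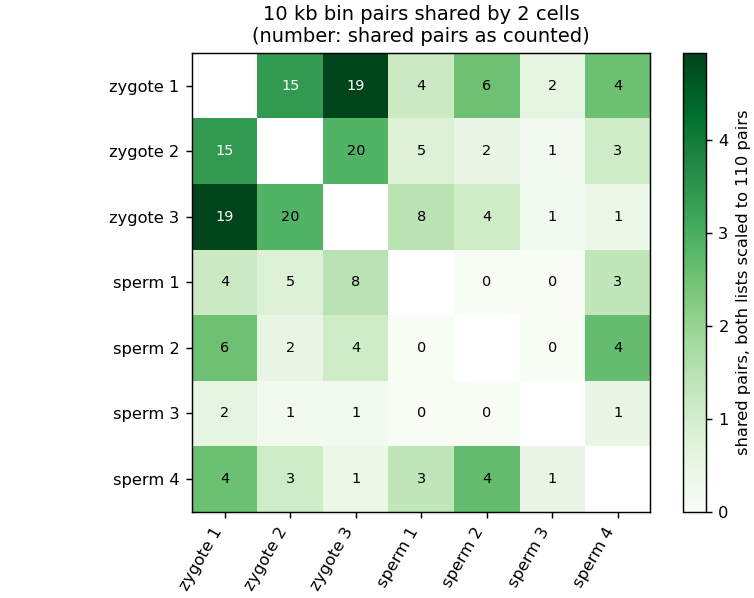
Pairs of 10 kb bins with a far contact in both of 2 cells, for the 3 zygotes and 4 sperm cells. Numbers are the pairs as counted and the shade is the number after scaling both lists to 110 pairs; couples of zygotes hold 15 to 20 pairs, couples of a zygote and a sperm cell 1 to 8 and couples of sperm cells 0 to 4.

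Most bins of the 28 shared pairs took part in 1 pair only. Some took part in more than 1, and 6 of those are named here. The bin at 13380001 to 13390000 on chromosome 12 took part in 4 of the 28 pairs, and had far contacts in 13 of the 15 cells. It held 6, 20 and 9 far ends in zygotes 1, 2 and 3, against 3, 1, 0 and 7 in sperm 1, 2, 3 and 4. The bin at 13640001 to 13650000 on chromosome 3 took part in 3 pairs, with 4, 1 and 5 far ends in the zygotes and 2, 2, 1 and 0 in the sperm cells. Its contact with the bin at 12880001 to 12890000 on chromosome 10 was in 7 of the 15 cells, the most for any shared pair, namely zygote 1, sperm 2, 2 eggs and 3 shoot cells. Neighbouring bins of chromosome 12, at 13340001 to 13350000 and 13370001 to 13380000, took part in 2 pairs each. So did the bins at 4690001 to 4700000 on chromosome 9 and 23370001 to 23380000 on chromosome 11. Of the 28 pairs common to zygotes and sperm cells, 15 were also in an egg and 11 in a shoot cell, with 19 in either.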

How the data were processed

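Per the labels, each library held 1 fixed cell, cut with DpnII, ligated, amplified with a multiple displacement kit, sheared and sequenced. The deposited files list read pairs in NCC format, 1 pair per line, with base positions of reads and fragments as other values, neither counts nor normalized, per the file columns; no source used here names the aligner, filters or genome build. A table pairing chromosomes with chain letters was not used. Read pairs were reduced to distinct fragment pairs, placed at fragment midpoints. Chromosome length was the highest position in any of the 15 files.

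Expected cis counts gave every pair of a cell's far ends at least 20 kb apart the same chance. Expected trans counts came from the trans ends of each chromosome or end window. Thinning used 100 draws. Shared pairs were scaled by the product of the kept fractions of both lists. Named were the 3 chromosomes highest and the 3 lowest by the zygote over sperm ratio, chromosomes whose cells do not overlap, the 3 fullest end windows per group and up to 6 bins in most shared pairs. The members, measures and named items were chosen with earlier results of these data known. Contact numbers of 761 to 3446 per cell set the precision.

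Alternatives were isolated contacts left out (no other with both ends within 1 Mb), fragments of more than 4 partners left out, merging per pair of 10 kb bins, at least 2 read pairs, thinning, recurrent bins left out, a 100 kb limit, expectation from lengths, 2 Mb windows, 100 kb and 1 Mb bins, and each cell left out. Chosen after seeing the data were the egg and shoot list of bins, 1 contact per place (linkage 100 kb), an expectation allowing nearer pairs, and the share at recurrent bins as a result. The measures were tested on simulated contacts. Python 3.11.15, numpy 2.4.6, pandas 2.3.3 and scipy 1.17.1 were used.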

Additional observations from a re-analysis of the deposited data

Results flagged for a closer look

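Of 38 sets of 4 sperm values, 2 had 1 cell far from the other 3, and chance flags about 1 set in 20. On chromosome 4 the cis excess of sperm 1 was 4.27, against 0.709 to 1.29 in the other 3 sperm cells. On chromosome 9 the share of far contact ends over the share of the genome was 0.626 in sperm 1, against 1.00 to 1.05 in the other 3. The 3 zygotes are too few for this check.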

How the results depend on the processing

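Values are zygote minus sperm unless said otherwise. The cis excess difference of -1.15 was -1.83 with isolated contacts left out, -1.89 with contacts of at least 2 read pairs and -0.462 without recurrent bins. Groups overlapped in the last, without egg and shoot recurrent bins, without fragments of over 4 partners, from 100 kb and with expectation from lengths. The end density difference of -0.267 turned to 0.0350 without recurrent bins, and the end to end difference of -1.94 to 2.21 without fragments of more than 4 partners. Shared pairs for a zygote with a sperm cell, 1.04, became 2.52 without those fragments, 2.12 with at least 2 read pairs, and 2.51 and 3.89 for 100 kb and 1 Mb bins. The recurrent bin share difference of 44.9 points became 59.4 without isolated contacts. Differences in cis separation (19.4 points, 10.3 to 28.2) and trans share (7.51 points, 3.31 to 12.1) kept their sign. The cause of these changes was not tested.

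Log2 ratios of chromosome 12 became 0.53 without recurrent bins, 0.62 without egg and shoot ones and 0.60 with lengths. Chromosome 5 gave -0.27 merged, -0.31 and -0.26 without each list of bins, -1.75 with lengths and -0.42 per place. Chromosome 6 gave -0.22 without fragments of more than 4 partners, -1.07 with lengths and -0.035 per place. Chromosome 8 gave -0.10 with at least 2 read pairs, -1.48 from 100 kb and -1.50 with lengths. Chromosomes 7 and 10 stayed below 0 where both groups had a contact, at -4.14 to -0.95 and -2.49 to -0.40.

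Leaving out each cell gave -1.38 to -0.827 for cis excess, 11.3 to 27.8 points for cis separation, -0.567 to -0.0759 for end density and -4.55 to 2.32 for end to end contacts, where 2.32 was without zygote 2. It gave 2.57 to 9.80 points for the trans share, 0.702 to 1.28 for shared pairs, 40.2 to 52.6 points for recurrent bins, -0.92 to 2.87 for chromosome 5, -0.72 to 1.08 for chromosome 6 and -0.43 to 0.98 for chromosome 8. For chromosomes 7, 10 and 12 it gave -2.41 to -0.011 (the last without zygote 2), -2.61 to -0.48 and -1.48 to -0.70 (the last without sperm 1). No paired analysis was possible because no test was made and the cell numbers pair nothing. In all, 93 of 125 values kept their sign and stayed within the spread of the main value, as did 79 of 90 with a cell left out. For end density and end to end contacts that spread, 0.399 and 4.19, was larger than the main difference. The same held for the trans share, with a spread of 7.92 points. It also held for the log2 ratios of chromosomes 5, 6 and 8, with spreads of 0.725, 0.608 and 0.739. Values close to no difference were therefore counted as kept. These include end density without egg and shoot recurrent bins (-0.00267) and end to end contacts per place (-0.0223). With 24 to 152 far cis contacts per cell, depth limits every value per chromosome.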
